A study of Mus musculus with 10 samples.

Results

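The genes examined were the 51 autosomal protein-coding mouse genes whose symbols begin with Srsf, Snrp, Hnrnp, Sf3a or Sf3b, out of 20807 autosomal protein-coding genes in the GENCODE M21 annotation of mm10. They comprised 11 Srsf genes, 12 Snrp genes, 19 Hnrnp genes and 9 Sf3a or Sf3b genes. The rule that chose them reads the symbol and the annotation and uses no measured value, though it was set with earlier results of these data known. Chromatin accessibility at these genes was measured by ATAC-seq, in which a transposase cuts open DNA, in primary neural stem and progenitor cells (NSPCs) from C57BL/6 mice at postnatal day 5. Activated NSPCs grew with 20 ng/ml FGF2 and 20 ng/ml EGF. Quiescent NSPCs were held for 4 days, per the labels, in 25 ng/ml BMP4 and 20 ng/ml FGF2 with no EGF. The study's methods give a shorter time for the quiescent cells used in ATAC-seq. Reactivated NSPCs spent 4 days in the BMP4 medium and were then returned to the activating medium for 9 to 12 days. Each state had 2 ATAC-seq libraries, and H3K4me3, the histone mark of active promoters, was mapped by ChIP-seq in 1 quiescent and 1 activated library. The cultures were not pure stem cells but held progenitors too, and the ATAC-seq values are averages over both. A shift in their proportions and a change within each cell therefore cannot be told apart.

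Splicing removes introns from the primary transcript in the spliceosome, a machine built from small nuclear RNAs and proteins. The Snrp genes encode proteins of the small nuclear ribonucleoproteins (snRNPs), including the Sm ring that holds most of these RNAs. Sf3a and Sf3b encode subunits of the U2 snRNP that bind at the branch point of the intron. Srsf genes encode SR proteins, which mostly bind exonic enhancers and promote use of nearby splice sites, and Hnrnp genes encode RNA-binding hnRNP proteins, many of which oppose SR proteins at exons. Most of these are used in nearly every cell, and relative amounts of SR and hnRNP proteins can shift splice choices.

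The ATAC-seq lists held 47323 to 60881 peaks in the quiescent and activated libraries, and 106586 and 107137 in the reactivated ones. Background pileup recovered from the lists was 12.2 in quiescent replicate 2 and 6.04 to 6.65 in the other 5 libraries, and the lowest pileup called was 25 in the former and 16 or 17 in the latter, so weaker sites were not detectable. Only the reactivated peak names carry a downsampling tag, so reactivation and that step cannot be told apart. Promoters of Sox2, Nes, Fabp7, Vim and Notch1, genes of neural stem and progenitor cells, had peaks in all 6 libraries. Of 10 markers of oligodendrocytes, microglia, endothelium and T cells, 8 had a peak in 0 libraries, Cx3cr1 had 1 and Pecam1 had 2. The neuronal genes Syt1 and Snap25 had peaks in all 6 libraries and Rbfox3 in 3. Their fold enrichment over background was highest in the reactivated libraries, at 14.7 and 17.1 for Syt1 against 7.27 to 12.7 in the other 4, and at 16.5 and 16.05 for Snap25 against 6.99 to 12.7. In these unscaled values, 78.9% of all promoters had both reactivated libraries above both activated ones and 87.9% had them above both quiescent ones. Rbfox3 had 4.25 and 3.45 in the reactivated libraries, 2.71 in activated replicate 1 and no peak in the other 3. The part of neurons in the results was not tested.

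Nearly all splicing factor promoters were accessible in every state. A peak overlapped the region within 1 kb of a transcription start site (TSS) in all 6 libraries at 47 of the 51 genes, beside 54.5% of all autosomal protein-coding genes. In the reactivated state 50 of 51 had a peak in both libraries (66.4% of all genes), and 48 did so in quiescent (56.9%) and 48 in activated cells (57.3%). The 4 exceptions were Sf3b5, Snrpb, Srsf12 and Sf3b3. Peak height is given here as fold enrichment, the pileup at the summit over the background in that library.

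Srsf12 encodes an SR-related protein that inhibits splicing, and its promoter had a peak in 3 of the 6 libraries. It had no peak in quiescent replicate 1 or in either activated library, 4.20 in quiescent replicate 2, and 9.21 and 9.00 in the reactivated libraries. Snrpb, which encodes the SmB core protein, had no peak in quiescent replicate 1, 3.29 in quiescent replicate 2, 5.57 and 4.14 in the activated libraries and 8.39 and 8.23 in the reactivated libraries. Both reactivated libraries stood above the peaks of the other states at these promoters as deposited, an order that most promoters shared (78.9% against activated and 87.9% against quiescent cells, among those with peaks in the 4 libraries compared). Sf3b3, a subunit of SF3b, had no peak in activated replicate 2, and its peaks elsewhere were low beside those of most members. They were 5.13 and 4.20 in quiescent cells, 5.84 in activated replicate 1 and 6.25 and 6.78 in reactivated cells. These 3 promoters did not enter the main tests below, which required a peak in every library. Snrpb entered the fits without quiescent replicate 1, and Sf3b3 those without activated replicate 2. The counts of reactivated libraries as deposited took in Snrpb against activated and Sf3b3 against quiescent cells. All 3 entered the fits with missing peaks set to the lowest fold enrichment, where limma called none of them.

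Sf3b5, which encodes the smallest SF3b subunit, had no peak within 1 kb of its GENCODE start. RefSeq places its start 3107 bp downstream, at position 13008450 of chromosome 10. A peak at that position was among the strongest in every library, with 12.6 and 15.9 in quiescent cells, 17.6 and 14.04 in activated and 19.6 and 22.7 in reactivated cells, at or above percentile 97.7 of each list. With RefSeq starts added, a comparison chosen after seeing the data, 48 of the 51 genes had a peak in all 6 libraries (54.6% of all genes).

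The promoters on which the results turn are shown from 150 bases before to 20 bases from the TSS, 5′ to 3′ on the strand of the gene, in GRCm38.p6 coordinates, from RefSeq promoters or, for Sf3b5, from the genome at its RefSeq start. Capitals mark every match to the 8 motifs described after the sequences. Matches were exact, on either strand, and could overlap one another. Hnrnpa2b1, Hnrnpl, Hnrnph3 and Srsf7 had the smallest p in reactivated against activated cells, Sf3a1 was the gene called higher, and Sf3b5, Srsf12 and Snrpn are shown for the peaks they had or lacked.
Hnrnpa2b1, chr6:51469875-51470044, minus strand: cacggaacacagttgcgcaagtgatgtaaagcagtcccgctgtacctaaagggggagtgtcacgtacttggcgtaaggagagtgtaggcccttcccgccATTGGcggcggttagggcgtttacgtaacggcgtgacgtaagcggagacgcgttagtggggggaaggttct
Hnrnpl, chr7:28810740-28810909, plus strand: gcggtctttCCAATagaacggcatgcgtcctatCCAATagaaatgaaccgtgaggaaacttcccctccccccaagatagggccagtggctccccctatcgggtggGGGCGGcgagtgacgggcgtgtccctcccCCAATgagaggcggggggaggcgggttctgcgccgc
Hnrnph3, chr10:63023830-63023999, minus strand: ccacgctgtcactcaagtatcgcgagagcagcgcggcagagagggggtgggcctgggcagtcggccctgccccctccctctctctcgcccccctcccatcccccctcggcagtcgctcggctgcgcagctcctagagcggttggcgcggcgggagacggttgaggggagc
Srsf7, chr17:80207286-80207455, minus strand: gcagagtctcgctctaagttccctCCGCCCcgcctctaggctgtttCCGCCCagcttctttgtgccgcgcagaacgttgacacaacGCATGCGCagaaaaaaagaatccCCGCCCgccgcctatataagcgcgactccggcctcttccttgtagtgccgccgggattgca
Sf3a1, chr11:4160204-4160373, plus strand: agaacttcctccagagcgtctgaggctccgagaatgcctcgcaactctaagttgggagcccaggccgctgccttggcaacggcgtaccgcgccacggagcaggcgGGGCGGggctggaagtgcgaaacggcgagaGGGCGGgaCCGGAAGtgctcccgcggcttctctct
Sf3b5, chr10:13008300-13008469, plus strand: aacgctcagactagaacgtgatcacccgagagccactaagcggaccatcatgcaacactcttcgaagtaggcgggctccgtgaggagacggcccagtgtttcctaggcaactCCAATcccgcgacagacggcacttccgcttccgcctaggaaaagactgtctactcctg
Srsf12, chr4:33209122-33209291, plus strand: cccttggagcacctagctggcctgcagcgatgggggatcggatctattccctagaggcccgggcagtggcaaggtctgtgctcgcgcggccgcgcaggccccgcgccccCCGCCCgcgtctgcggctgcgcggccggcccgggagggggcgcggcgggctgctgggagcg
Snrpn, chr7:60005180-60005349, minus strand: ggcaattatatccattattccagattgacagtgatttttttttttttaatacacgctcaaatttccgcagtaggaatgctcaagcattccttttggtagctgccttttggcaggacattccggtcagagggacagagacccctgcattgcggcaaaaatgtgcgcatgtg

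Over RefSeq promoters of 300 bases (250 before to 50 after the start), 62 belonged to 45 of the 51 genes, some of them overlapping, and 19174 to all genes. The Sp/KLF box, GGGCGG, was in 42 of the 62, or 67.7%, beside 48.3% of all promoters. The ETS motif, CCGGAAG, was in 21, or 33.9%, beside 12.1%, and among the genes with it were Sf3a1, Sf3a2, Sf3a3, Sf3b2, Sf3b3 and Sf3b6. The NF-Y motif, CCAAT, was in 43.5% beside 37.5%, and the TATA box, TATAAA, in 11.3% beside 12.1%. The E box of MYC and USF, CACGTG, was in 9.68% beside 8.04%, and the NRF1 motif, GCGCATGC, in 4.84% beside 3.67%. The CREB/ATF motif, TGACGTCA, was in 3.23% beside 2.36%, and the YY1 motif, AAGATGGCG, in 1.61% beside 1.91%. The ratio of observed to expected CpG had a median of 0.92 in the members' promoters and 0.60 in all, and median GC content was 61.0% and 57.3%.

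**Figure D1:**
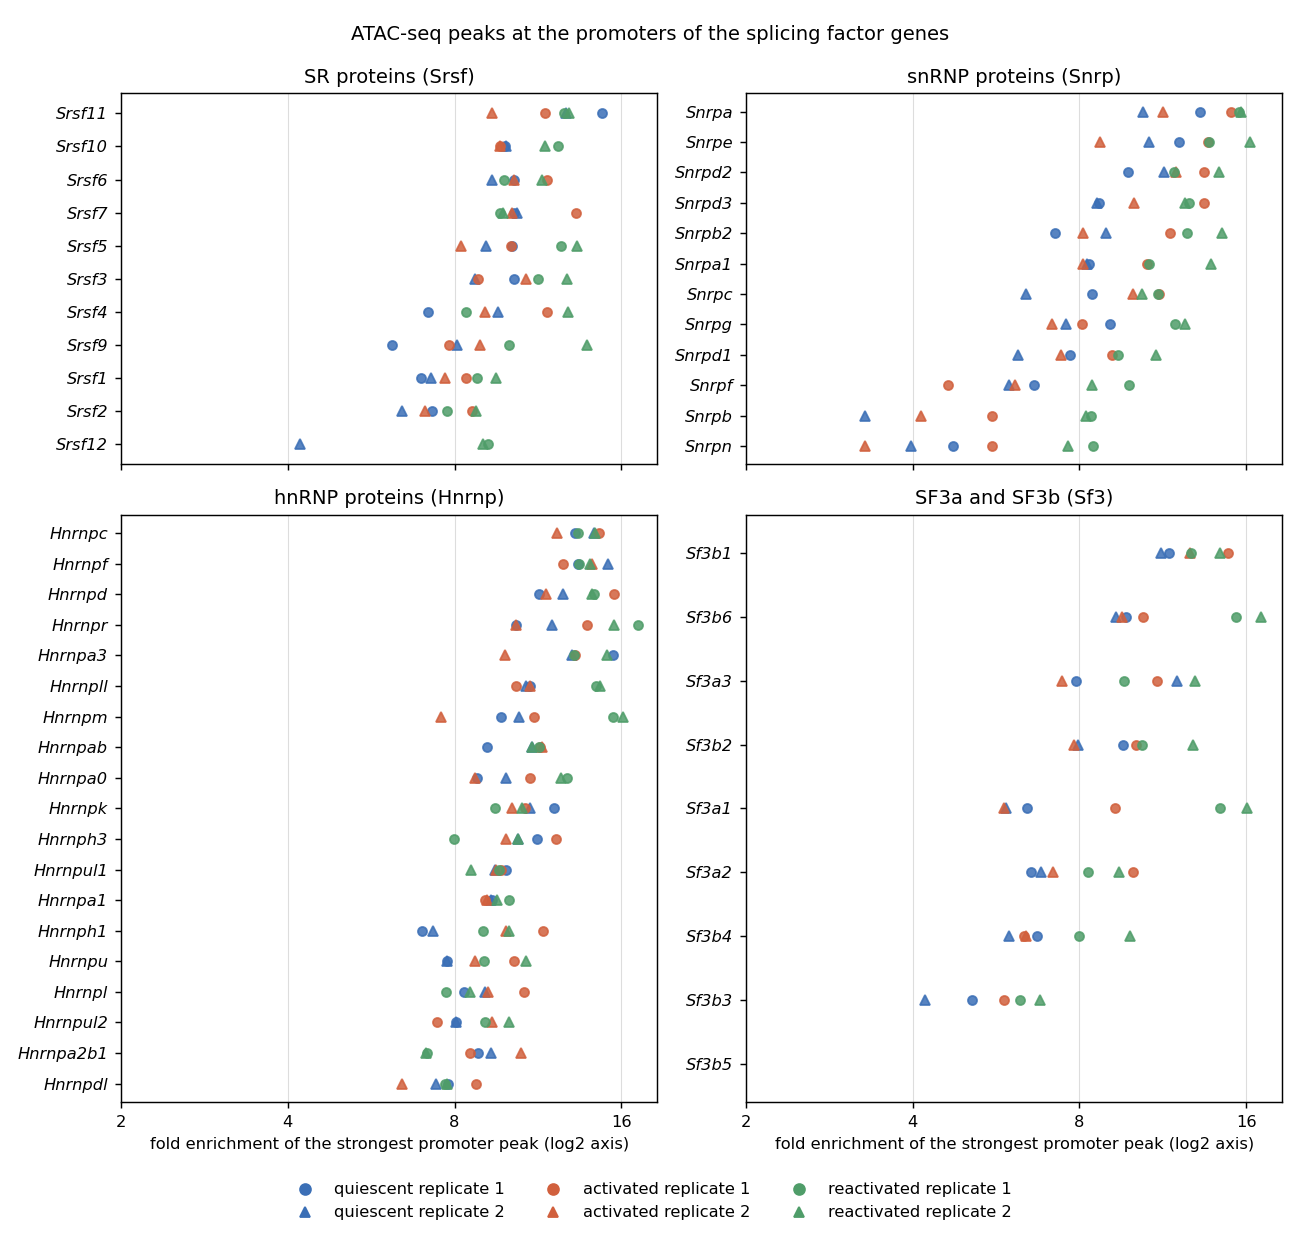
Fold enrichment of the strongest ATAC-seq peak within 1 kb of a TSS for each splicing factor gene, by family, on a log2 axis, with colours for the states and symbols for the replicates. Sf3b5 had no peak in this window, and Srsf12, Snrpb and Sf3b3 lack points in libraries with no peak. Most genes lie between 6 and 16. The reactivated points stand above those of the other states at Sf3a1 (14.3 and 16.01), and among others at Sf3b6 (15.3 and 17.0) and Hnrnpm (15.5 and 16.1). Most promoters shared this order in these unscaled values.

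Accessibility at these promoters was high within each list and varied within each family. As a percentile of all autosomal peaks of the library, the members' median was 91.4 ± 1.1 in quiescent cells, 90.2 ± 0.58 in activated and 88.1 ± 3.1 in reactivated cells (mean ± SD of library medians, n = 2). The same value over all genes with a promoter peak was 85.1, 83.4 and 88.3. The reactivated lists are longer, and with all lists cut to equal length the members' medians were 89.6, 89.1 and 73.4, beside 82.7, 82.0 and 77.8 over all genes. Among SR genes, Srsf11 had the highest mean percentile over the 6 libraries, 94.2, and Srsf12 the lowest, 75.4 over the 3 libraries with a peak. Among snRNP genes, Snrpa, of the U1 snRNP, had the highest at 96.8 and Snrpn the lowest at 59.9. Among hnRNP genes the highest was Hnrnpc at 96.9 and the lowest Hnrnpdl at 80.2. In SF3, Sf3b1, which contacts the branch point, reached 96.1, and Sf3b3 had 65.8. Of the 51 genes, 17 had the TSS of another protein-coding gene within 1 kb, so that their peaks cannot be assigned to 1 gene. These include Sf3a1 (Ccdc157, 57 bp), Hnrnph3 (Pbld2, 98 bp), Srsf7 (Ttc39d, 153 bp) and Hnrnpa2b1 (Cbx3, 466 bp).

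Snrpn encodes SmN, the Sm protein of neurons, from an imprinted locus that is silent on the maternal allele. Its strongest promoter peak was 4.73 and 3.97 in quiescent cells, 5.57 and 3.28 in activated and 8.45 and 7.62 in reactivated cells. The reactivated libraries were highest as deposited, and the quiescent and activated libraries overlapped. Over all promoters, 78.9% likewise had both reactivated libraries above both activated ones. After normalization Snrpn was not called, with a log2 difference of 0.30 ± 0.23 against activated cells (adjusted p = 0.36 in limma) and 0.01 ± 0.23 against quiescent cells (adjusted p = 0.99), and at the 1 of its sites with a peak in all 6 libraries the difference from activated cells was 0.10 (adjusted p = 0.81). In quiescent cells the strongest peak lay 32 and 22 bp upstream of the TSS, in activated cells 811 and 844 bp downstream of it, and in reactivated cells 31 bp upstream and 781 bp downstream. Snurf shares this promoter, with a TSS within 47 bp.

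No splicing factor promoter passed the test between quiescent and activated NSPCs, and few promoters of any kind did. Over the 11331 promoters with a peak in all 6 libraries, limma with Benjamini-Hochberg adjustment called 0 of 47 members higher in quiescent cells, beside 0.521% of all promoters, and 0 lower, beside 0.600%. With 127 of the 11331 called in either direction, 0 of 47 does not set the members apart from other promoters. At an unadjusted p under 0.05 there were 5 members (10.6%, beside 13.3% of all), namely Srsf11, Hnrnpa3, Hnrnph1, Snrpc and Snrpd3. The median log2 difference, quiescent minus activated, was 0.05 over the members and 0.01 over all promoters. Among the well known members, the log2 difference was 0.06 ± 0.19 (SE) for Hnrnpa2b1, 0.15 ± 0.16 for Hnrnpa1, -0.20 ± 0.12 for Sf3b1 and 0.08 ± 0.18 for Srsf3.

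Srsf11, an SR-related protein with a role in neuronal microexons, came closest. Its fold enrichment was 14.7 and 12.7 in quiescent cells, 11.6 and 9.34 in activated and 12.6 and 12.8 in reactivated cells. The last value is at another start of the gene, chr3:158031308-158031943, and at the site of the other 5 values, chr3:158036277-158037007, reactivated replicate 2 had 11.5. Both quiescent libraries stood above both activated ones, with a log2 difference of 0.43 ± 0.13 and an adjusted p of 0.12 in limma; with median centring in place of quantile normalization, the adjusted p was 0.027, and Srsf11 was then the 1 member called, beside 1.35% of all promoters called higher. Hnrnph1, a regulator that binds runs of G, had 6.99 and 7.32 in quiescent cells, 11.5 and 9.90 in activated and 8.99 and 10.03 in reactivated cells. Its quiescent libraries were the lowest of the 6, and the difference from activated cells was -0.40 ± 0.16, with an adjusted p of 0.25.

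A percentile depends on the length of its list, and the quiescent lists held 53586 and 59108 autosomal peaks, the activated 56961 and 46071. By percentile, quiescent libraries stood above both activated ones at 16 of 47 members (34.0%, beside 26.0% of 11336 promoters) and below them at 5 (10.6%, beside 15.9%). With every list cut to the length of the shortest these were 13 (27.7%, beside 21.3%) and 6 (12.8%, beside 21.3%). As deposited, with no scaling between libraries, the balance was the other way, with quiescent values above both activated ones at 4 members (beside 7.44%) and below them at 11 (beside 35.5%). Without activated replicate 1 the counts by percentile were 27 (57.4%, beside 49.2%) and 9 (19.1%, beside 25.6%), and the latter was 14 without quiescent replicate 2 (29.8%, beside 34.3%) and 17 without activated replicate 2 (35.4%, beside 35.2%). Among those with quiescent above, both with the full lists and at equal length, were Snrpf, which encodes SmF, with percentiles of 79.5 and 79.6 against 51.0 and 71.6, Snrpg, Hnrnpdl and Srsf11. Those with quiescent below were Hnrnph1 (81.8 and 86.3 against 93.1 and 92.1), Snrpc, Snrpd3, Snrpd2 and Sf3b1, joined by Hnrnpu at equal length.

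Reactivated NSPCs differed from activated NSPCs at many of these promoters, mostly by lower peaks relative to other promoters. After quantile normalization 21 of 47 members were lower in reactivated cells (44.7%, beside 10.5% of all promoters) and 1, Sf3a1, was higher (2.13%, beside 10.4%). The members' median log2 difference was -0.38, and that of all promoters was -0.02. The hnRNP genes held 13 of the 21, out of 19 fitted, with a median of -0.47. Lower too were 3 of 10 SR genes (median -0.31), 3 of 11 snRNP genes (median -0.12) and 2 of 7 SF3 genes (median -0.15), and whether the families differ was not tested.

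The direction depended on the scaling. In the lists as deposited, reactivated peaks were taller at most promoters, by a median of 0.48 on the log2 scale over all those fitted, and by 0.19 over the members. The members thus lay 0.28 below the median of all promoters both with no normalization and with median centring. These scalings differ by a constant per library, so that their gaps are equal by construction. The gap was 0.36 with quantile normalization. With no normalization limma called 12 members higher and 0 lower, beside 53.4% and 0.0971% of all promoters. At an unadjusted p under 0.05 limma had 26 members with quantile normalization, beside 35.9% of all promoters, and 14 without, beside 60.3%. Of the 21 members called lower, 10 stayed below 0 with no normalization and 11 did not. "Lower" below therefore means lower than the common shift of all promoters.

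Hnrnpa2b1 encodes hnRNP A2 and B1, which bind RNA in the nucleus and in neuronal transport granules. Its strongest promoter peak was 8.83 and 9.30 in quiescent cells, 8.53 and 10.53 in activated and 7.13 and 7.11 in reactivated cells. Both reactivated libraries were the lowest of the 6 as deposited. The log2 difference after normalization was -1.04 ± 0.19 against activated cells, with an adjusted p of 0.0021 in limma. The bases covered by peaks at this promoter were 997 and 1519 in quiescent cells, 1308 and 962 in activated and 1843 and 1608 in reactivated cells, and the strongest summit lay 230 and 223 bp upstream of the TSS in the reactivated libraries and 71 to 113 bp upstream in the others.

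Hnrnpl encodes a repressor and activator of exons that binds CA repeats. It had 8.34 and 9.08 in quiescent cells, 10.7 and 9.18 in activated and 7.71 and 8.52 in reactivated cells. Its reactivated libraries were below both activated libraries, and the difference was -0.91 ± 0.16, with an adjusted p of 0.0020 in limma. Srsf7, an SR protein that also acts in mRNA export, had 10.3 and 10.4 in quiescent cells, 13.3 and 10.2 in activated and 9.67 and 9.78 in reactivated cells. At Srsf7 the reactivated libraries were the lowest, with a difference of -0.83 ± 0.14 and an adjusted p of 0.0015 in limma. Hnrnph3 had 11.3 and 10.4, 12.2 and 9.89, and 7.99 and 10.4 in the same order, so that its states overlapped as deposited, and its difference was -0.85 ± 0.15 (adjusted p = 0.0021).

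These 4 genes and Hnrnph1, at -0.75 ± 0.16, were the 5 of 47 called against activated cells whichever library was left out (10.6%, beside 3.08% of all promoters). The rest of the 10 with the smallest p were Hnrnpk at -0.63, Sf3b1 at -0.50, Srsf6 at -0.59, Hnrnpul1 at -0.67 and Hnrnpab at -0.56. Hnrnpa1, the best studied antagonist of SR proteins, was at -0.47 ± 0.16 (adjusted p = 0.043 in limma), with 9.34 and 9.32 in quiescent cells, 9.09 and 9.14 in activated and 10.04 and 9.53 in reactivated cells, so that it was highest in reactivated cells as deposited. This call was lost with median centring (-0.40, adjusted p = 0.079), with missing peaks set to the lowest fold enrichment (adjusted p = 0.065) and without any 1 of the libraries other than activated replicate 1 (adjusted p up to 0.22). Srsf2, also called SC35, was at -0.54 ± 0.18 (adjusted p = 0.038), and its call was lost with median centring (-0.42, adjusted p = 0.097), with missing peaks so set (adjusted p = 0.054) and without any 1 of the 6 libraries (adjusted p of 0.054 to 0.18). Srsf1, at -0.40 ± 0.17 (adjusted p = 0.097), and Srsf3, at -0.21 (adjusted p = 0.40), were not called. As deposited, both reactivated libraries were below both activated libraries at 4 of 48 members, Hnrnpa2b1, Hnrnpab, Hnrnpl and Srsf7 (8.33%, beside 1.66% of all promoters with peaks in these 4 libraries), and above them at 24 (beside 78.9%). The total of 22 calls was 12 without activated replicate 2, 7 without reactivated replicate 1 and 10 without reactivated replicate 2, beside 11.5%, 5.63% and 7.32% of all promoters. With median centring it was 16, or 15 lower (beside 8.81%) and Sf3a1 higher (beside 8.21%), and the calls lost were Hnrnpa1, Hnrnpdl, Hnrnpu, Sf3a2, Snrpd3 and Srsf2. With missing peaks set to the lowest fold enrichment it was 13 of 50, all lower, beside 10.5% of all promoters called in either direction.

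Sf3a1, which encodes the largest SF3a subunit, was the 1 member called higher, though other members also lay above 0. Against activated cells 17 of 19 hnRNP, 9 of 10 SR, 7 of 11 snRNP and 5 of 7 SF3 genes were below 0. Sf3a1 had 6.44 and 5.88 in quiescent cells, 9.29 and 5.85 in activated and 14.3 and 16.01 in reactivated cells. The reactivated libraries stood above the other 4, with log2 differences of 0.60 ± 0.17 against activated (adjusted p = 0.019 in limma) and 0.66 ± 0.17 against quiescent cells (adjusted p = 0.0096). The difference was also positive with median centring, at 0.54 against activated and 0.64 against quiescent cells. With no normalization the upward shift of all promoters adds to it, so its sign there is no check. The call against activated cells was lost without activated replicate 2, where the difference fell to 0.39 (adjusted p = 0.14), or without either reactivated replicate (adjusted p of 0.086 and 0.13), and with missing peaks set to the lowest fold enrichment (adjusted p = 0.061). The call against quiescent cells was lost without any 1 of the quiescent or reactivated libraries, with adjusted p of 0.052 to 0.082.

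**Figure D2:**
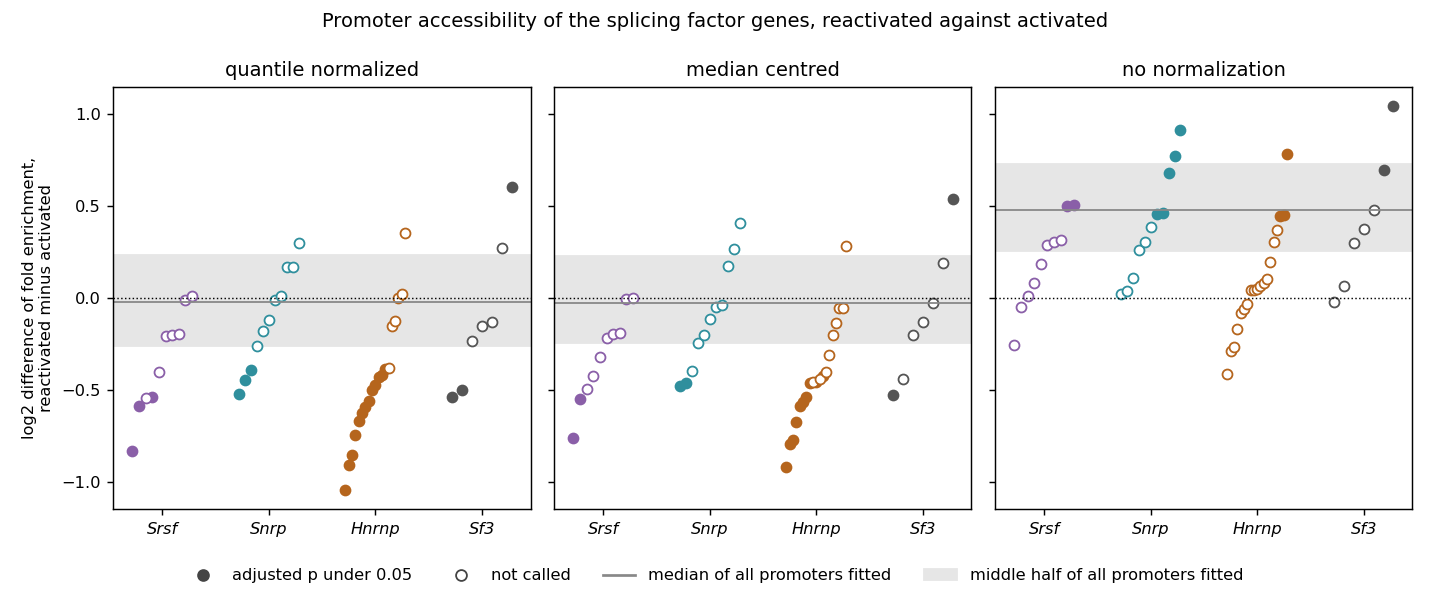
Log2 difference of promoter fold enrichment, reactivated minus activated, for the 47 members with a peak in all 6 libraries, by family and under 3 scalings, where each point is a gene and filled points have an adjusted p under 0.05 in limma. The line and the grey band give the median and the quartiles of all 11331 promoters fitted. Most Hnrnp points lie below the band in each panel, and 0 lies within the band in the left and middle panels but below it on the right.

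Against quiescent cells, in a comparison that shares the reactivated libraries with that above, most called members were again lower. Of 47 members 15 were lower in reactivated cells (31.9%, beside 13.0% of all promoters) and 1, Sf3a1, was higher (2.13%, beside 12.2%). The 15 comprised 11 hnRNP genes and 4 SR genes, Srsf2, Srsf6, Srsf7 and Srsf11. With median centring 18 members were lower (38.3%, beside 18.0% of all promoters) and Sf3a1 higher (beside 13.3%), with Srsf2 lost (adjusted p = 0.087 in limma) and Hnrnpd, Srsf10, Sf3b1 and the snRNP gene Snrpd2 gained. The median difference was -0.31 over the members and -0.02 over all promoters, with -0.49 for hnRNP, -0.38 for SR, -0.10 for snRNP and -0.31 for SF3 genes. With no normalization these medians were 0.35 over the members and 0.62 over all promoters, and 18 members were called higher and 0 lower, beside 69.4% and 0.132% of all promoters. At an unadjusted p under 0.05 limma had 25 members with quantile normalization (38.6% of all) and 21 without (72.7%). As deposited, both reactivated libraries were below both quiescent ones at 3 of 48 members, Hnrnpa2b1, Hnrnpk and Srsf7, beside 1.54% of all promoters, and above them at 34, beside 87.9%.

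The smallest p against quiescent cells belonged to Hnrnph3 at -0.92 ± 0.15, Hnrnpk at -0.84 ± 0.14 and Hnrnpa2b1 at -1.10 ± 0.19, with adjusted p of 0.0010 to 0.0011 in limma. Hnrnpk encodes a protein that binds C-rich RNA and DNA, and it had 12.1 and 10.9 in quiescent cells, 10.7 and 10.2 in activated and 9.47 and 10.6 in reactivated cells. Srsf7, Hnrnpl, Srsf11, Hnrnpul1, Hnrnpdl, Hnrnpc and Hnrnpf followed, at -0.75, -0.85, -0.63, -0.79, -0.77, -0.49 and -0.55. At Srsf11 and Hnrnpf these values rest on strongest peaks at different sites in different libraries. Fitted over all sites, Srsf11 was at -0.82 (adjusted p = 0.00088 in limma) at chr3:158036277-158037007 and at 0.07 (adjusted p = 0.80) at chr3:158031308-158031943. Hnrnpf was at -0.72 (adjusted p = 0.0023) and at 0.11 (adjusted p = 0.70) at its sites starting at 117906546 and 117916739 of chromosome 6. In all, 5 of the 50 members with a promoter peak had their strongest peak at more than 1 site, the others being Hnrnpu, Snrpn and Sf3b3. Against activated cells Hnrnpu was at -0.78 (adjusted p = 0.0075) and at -0.45 (adjusted p = 0.076) at its sites starting at 178336368 and 178337571 of chromosome 1, and Hnrnpf at -0.59 (adjusted p = 0.012) and 0.28 (adjusted p = 0.32). Hnrnpa2b1, Hnrnph3, Hnrnpk, Hnrnpl, Hnrnpul1 and Srsf7 were the 6 of 47 called whichever library was left out (12.8%, beside 4.38% of all promoters). The total of 16 was 8 and 9 without quiescent replicate 1 or 2, and 10 without reactivated replicate 1, beside 10.6%, 9.25% and 8.81% of all promoters.

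Among the members, those with broader open regions had the lower values in reactivated cells. Across the 47 members the reactivated minus activated difference had a Spearman rho of -0.66 with the bases covered by peaks around the promoter (mean of 6 libraries) and of -0.56 with H3K4me3 width. Over 11030 promoters with both marks the values were -0.37 and -0.50. These correlations are across genes, which are not independent replicates, the difference and the covered length come from the same libraries, and they are given as a description. Median covered length at the members' promoters was 747 and 795 bp in quiescent cells, 839 and 725 bp in activated and 1083 and 1017 bp in reactivated cells. Over all promoters it was 595 and 623, 662 and 569, and 904 and 891 bp. The reactivated lists had 3.19 and 3.30 peaks per member promoter against 2.19 to 2.51 in the other libraries, and over all promoters 3.01 and 2.99 against 1.92 to 2.18. Whether this number has a part in the lower values was not tested.

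Other genes of splicing were read from lists of further spliceosome components and of further regulators. Of 59 other spliceosome components, all but Slu7 had a promoter peak in all 6 libraries. In reactivated against activated cells 10 of the 58 fitted were lower and 5 higher, beside 10.5% and 10.4% of all promoters, with a median of -0.08 beside -0.02. In quiescent against activated cells limma called 0 in either direction, beside 0.521% above and 0.600% below, and 5 of the 58 had an unadjusted p under 0.05, beside 13.3% of all promoters. Of 37 other regulators of splicing found on autosomes, 35 had peaks in all 6 libraries, the exceptions being the neuronal genes Rbfox3 and Srrm4. Among the 35, 7 were lower and 1 higher in reactivated than in activated cells, beside the same 10.5% and 10.4%, with a median of -0.26. Between quiescent and activated cells limma called 0 of the 35, beside the same 0.521% and 0.600%, and 4 had an unadjusted p under 0.05.

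H3K4me3 marked nearly all splicing factor promoters in both states. It was found within 1 kb of a GENCODE TSS in both states at 50 of the 51 genes, beside 61.0% of all genes. At Sf3b5 only a 431 bp peak at the edge of the window was found, in quiescent cells, but at its RefSeq start the peaks reached 47.3 in quiescent and 54.2 in activated cells, and all 51 were marked in both states with RefSeq starts added (61.1% of all genes). Median fold enrichment over input was 45.7 in quiescent cells (n = 51, with the 431 bp peak of Sf3b5) and 46.6 in activated cells (n = 50). The median over all marked promoters was 38.0 and 35.8. There was 1 library per state, so differences between states have no replicate check.

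The H3K4me3 peaks of these genes were wide beside those of all marked promoters, though not beside those of other regulators of splicing. Their median width was 3087 bp in quiescent cells (n = 51, with the 431 bp peak of Sf3b5) and 3261.5 bp in activated cells (n = 50). The median over all marked promoters was 2172.5 and 2065 bp. Over the 37 other regulators of splicing it was 3066 and 3038 bp, and over the 59 other spliceosome components 2441 and 2342 bp. In both states 25 of 50 members had a peak wider than 3000 bp, beside 17.7% of all promoters marked in both. Hnrnpa1, with 7883 and 6640 bp, and Hnrnpa2b1, with 7060 and 7189 bp, had the widest marks in both states, Hnrnpa1 leading in quiescent and Hnrnpa2b1 in activated cells. Next came Hnrnpu in quiescent cells (5882 bp, 5955 bp in activated) and Hnrnpd in activated cells (6318 bp, 5128 bp in quiescent). The hnRNP genes had a median of 4121 bp in quiescent and 3977 bp in activated cells, the SR genes 3193 and 2954 bp. SF3 genes had 2581 bp (n = 9, with Sf3b5) and 2485.5 bp (n = 8), and snRNP genes 2166.5 and 2330 bp. Cbx5 and Cbx3 start 616 and 466 bp from Hnrnpa1 and Hnrnpa2b1, so the width at these promoters cannot be assigned to 1 gene. The narrowest marks in both states were those of Srsf12, 931 and 635 bp, Sf3a3, 1682 and 1696 bp, and Snrpb2, 1720 and 1484 bp.

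Few members differed between states in H3K4me3, and few promoters of any kind did. With 50 members and 1 library per state, the counts do not set the members apart from other promoters. After centring on the median of all promoters, 1 of 50 members was over 1.5-fold higher in activated cells, beside 1.75% of all promoters, and 0 were over 1.5-fold higher in quiescent cells, beside 2.66%. That member was Snrpg, which encodes SmG, with 37.9 in quiescent and 54.3 in activated cells. No member's peak was over 1.5-fold wider in either state, beside 4.22% of promoters wider in quiescent and 0.489% wider in activated cells. Snrpb, with no ATAC-seq peak in quiescent replicate 1, had H3K4me3 of 57.0 and 59.1, and Srsf12 had 15.4 and 18.1, the lowest of the 50.

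**Figure D3:**
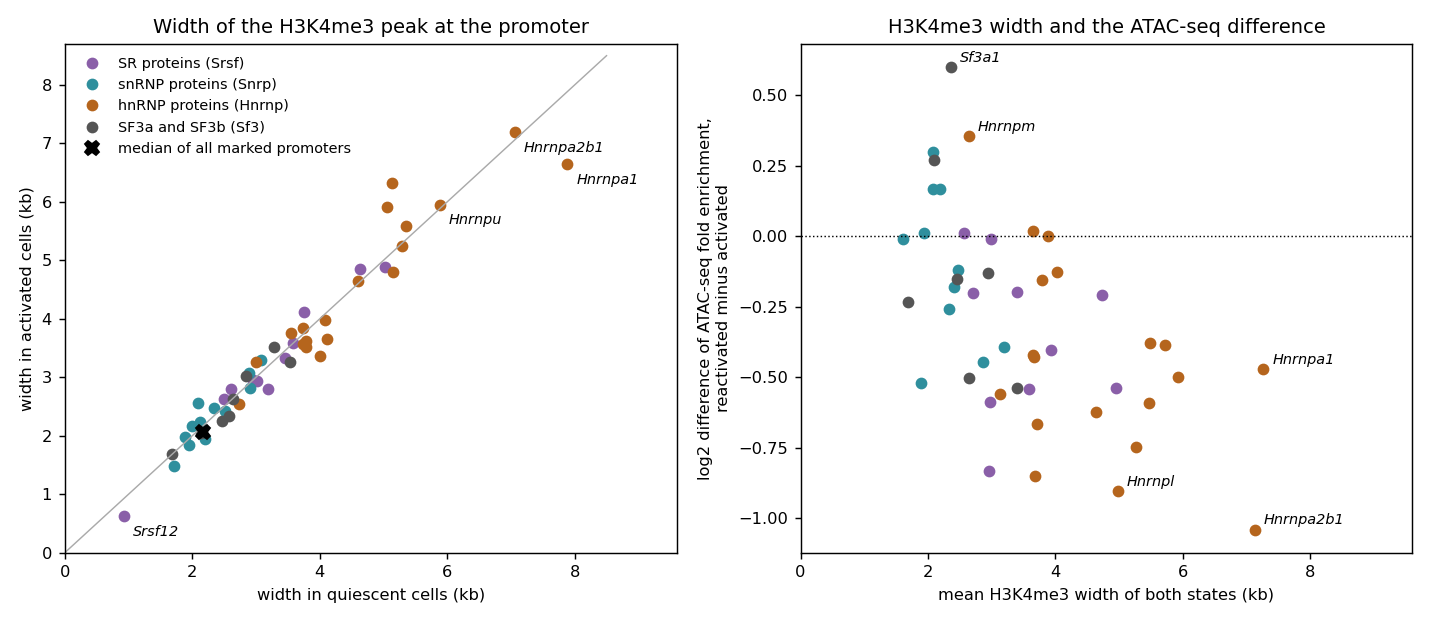
Left, width of the widest H3K4me3 peak within 1 kb of a TSS in quiescent and activated cells (kb), 1 library each, with the line of equal width and the median of all marked promoters as a cross. Right, mean width of both states against the log2 difference of ATAC-seq fold enrichment, reactivated minus activated, after quantile normalization, where each point is a gene. Most members lie above the median of 2172.5 and 2065 bp, and the widest marks, of Hnrnpa1 and Hnrnpa2b1, go with log2 differences of -0.47 and -1.04.

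Away from their promoters these genes had few accessible sites. Peaks merged over the libraries and found in at least 2 gave 9 sites in the gene bodies of 8 of the 51 genes (15.7%, beside 37.4% of all genes). The bodies are short, with a median of 5.75 kb outside the promoter windows beside 14.2 kb over all genes, and the density was 1.25 sites per 100 kb beside 3.06. By state, 4 sites were shared by quiescent and activated cells (44.4%, beside 36.8% of all gene-body sites), 2 were specific to quiescent cells (22.2%, beside 11.8%), 0 to activated cells (beside 7.13%) and 3 had peaks in both reactivated libraries alone (33.3%, beside 24.2%). Among the shared sites, that of Sf3b5 is the peak at its RefSeq start. The counts and the density thus include a site that is a promoter in RefSeq.

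Sf3a1 held 2 of the 9. The shared site, chr11:4174324-4175011 (mm10), is intronic and its middle is at -2881 bp from the nearest annotated TSS of the gene. It had 5.78 and 6.50 in quiescent cells, 3.71 and 4.28 in activated and 12.1 and 11.6 in reactivated cells. The states did not overlap, with activated cells lowest. In limma over the 22589 sites with a peak in all 6 libraries the log2 difference was 0.83 ± 0.22 for quiescent against activated (adjusted p = 0.021) and 0.95 ± 0.22 for reactivated against activated cells (adjusted p = 0.0085), beside 10.8% and 18.1% of all sites called. Reactivated against quiescent cells differed by 0.12 ± 0.22 (adjusted p = 0.70), beside 27.7% of all sites called. The call in quiescent against activated cells was lost with missing peaks set to the lowest fold enrichment (adjusted p = 0.078) and without either quiescent replicate or activated replicate 1, with differences of 0.59 to 0.99 and adjusted p of 0.022 to 0.14 over the libraries left out. A quiescent-specific site overlaps an exon at chr11:4182125-4182373, 4701 bp downstream of a TSS, with 3.70 and 3.67 in quiescent cells and 2.61 in reactivated replicate 1.

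The other quiescent-specific site was exonic, in Hnrnpr at chr4:136359088-136359422, with 3.42 and 2.83. The sites with peaks in reactivated cells alone were intronic, at chr5:99973993-99974224 in Hnrnpd (4.02 and 4.57), chr6:117921377-117921592 in Hnrnpf (3.12 and 3.86) and chr7:60123147-60123355 in Snrpn (3.07 and 4.12). All 5 of these sites were weak, and the reactivated lists held the most peaks of all. A shared site in an intron of Srsf4, chr4:131896104-131896700, had 3.42 and 4.36 in quiescent and 3.71 and 3.57 in activated cells and no peak in reactivated cells. An intronic site of Sf3b3, chr8:110815329-110815770, had 7.10 and 5.20, 7.83 and 4.56, and 7.60 and 7.18 in quiescent, activated and reactivated cells, above its promoter peak in each library that had the latter. The last of the 9 is the peak at the RefSeq start of Sf3b5.

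**Figure D4:**
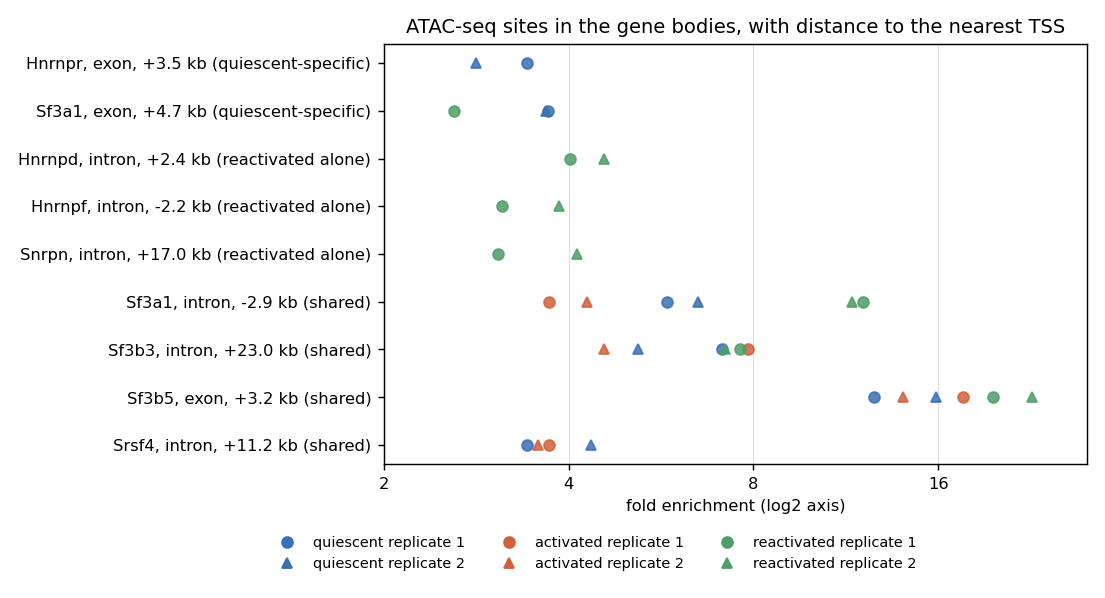
Fold enrichment (log2 axis) at the 9 sites in the gene bodies of the members, outside 1 kb of any GENCODE TSS, with the distance of the site's middle from the nearest TSS of the gene, the part of the gene and the class. Colours mark states and symbols replicates, and a missing point means no peak. The Sf3b5 site, at the RefSeq start, is the tallest in every library, from 12.6 to 22.7.

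Within the promoter windows the members had 76 sites in at least 2 libraries. Of these, 63 were shared by quiescent and activated cells (82.9%, beside 71.0% of 18721 promoter sites), and 0 were specific to quiescent or to activated cells, beside 2.43% and 3.07%. Peaks in both reactivated libraries alone made 9 sites (11.8%, beside 14.2%), at Hnrnpu, Hnrnpc, Hnrnpm, Hnrnpll, Srsf3, Srsf6, Srsf9, Snrpb and Sf3b3. The tallest of these was at Sf3b3, chr8:110846518-110846870, with 6.11 and 6.78, and the others ranged from 2.18 to 5.72. The remaining 4 sites (beside 9.26%) had peaks in both reactivated libraries and 1 other, at Srsf1, Srsf12, Hnrnpa2b1 and Hnrnpf. In all, 52 of the 76 had a peak in all 6 libraries, beside 60.7%.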

How the data were processed

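ATAC-seq and H3K4me3 ChIP-seq peak lists of mouse NSPCs, in mm10 coordinates, were analysed. The submitters' processing notes name Trim Galore 0.4.0, Bowtie2 2.2.5, Picard 1.88, SAMtools 1.3.1 and HOMER, and per the study's methods peaks were called with MACS at an FDR of 0.05, with H3K4me3 called as broad peaks against input. The deposited files hold 1 list per library. The deposited lists give for each peak a fold enrichment, which is a ratio to that library's own background and not scaled between libraries, and the −log10 of its p-value and q-value. The summit offset of ATAC-seq peaks was also deposited. The lists hold no read totals, and a region without a peak has no value. The study's supplementary material describes quiescent replicate 2 as the deepest library and the reactivated libraries as downsampled from filtered read pairs, and a summit value can change with depth and peak calling. Background pileup was recovered from the Poisson p-value and the fold enrichment of each peak, to within 1% for 44.9% to 73.5% of peaks.

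A promoter was the 1 kb on each side of any GENCODE M21 TSS, and its value was the strongest overlapping peak. Values were taken to log2, without a pseudocount, quantile normalized and fitted in limma 3.58.1 (R 4.3.3) with 1 mean per state and a trended variance, over the 11331 autosomal protein-coding genes with a peak in all 6 libraries, which leaves 3 residual degrees of freedom. Sites were peaks merged over the libraries and found in at least 2, fitted likewise, and "specific" means that both quiescent libraries had a peak and no activated library did, or the reverse. P-values were adjusted by Benjamini and Hochberg over all genes or sites at a threshold of 0.05. Percentiles are among the autosomal peaks of a list. The ATAC-seq replicates were biologically independent per the study's methods, and H3K4me3 had 1 library per state and no test. Scripts (Python 3.11.15, numpy 2.4.6, pandas 2.3.3, scipy 1.17.1, matplotlib 3.10.9) were tested on simulated data. Alternatives changed the scaling, window, peak threshold, TSSs and list length, imputed missing peaks, blocked on replicate number or left out each library. The genes named were members lacking a peak in a library, the 10 with the smallest p among those called in a contrast, the extremes of each family and of H3K4me3 width, those with gene-body sites, and well known members, and others named were chosen after their values were seen. The members and gene lists were chosen with earlier results of these data known.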

Additional observations from a re-analysis of the deposited data

How the results depend on the processing

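The count of members with a promoter peak in all 6 libraries was 47 or 48 whichever library was left out. The members' median percentile was 83.2 in quiescent, 82.7 in activated and 82.3 in reactivated cells with only peaks of −log10 q of at least 10, and 89.6, 89.1 and 73.4 with lists cut to equal length (82.7, 82.0 and 77.8 over all genes). Members whose quiescent libraries stood above both activated ones numbered 16 to 27 with 1 library left out, and those below 5 to 17, beside 26.0% to 49.2% and 15.9% to 35.2% of all promoters. For quiescent against activated promoters limma called 1 member with median centring and 0 in every fit with 1 library left out, beside 2.74% and 0.112% to 1.37% of all promoters. For reactivated against activated it called 12 with no normalization (all higher), 13 with missing peaks set to the lowest fold enrichment, and 7 to 17 with 1 library left out (beside 53.5%, 10.5% and 5.63% to 19.4% of all promoters), where an arm of 1 library is assumed to vary like the others. For reactivated against quiescent it called 8 to 17 with 1 library left out, beside 8.81% to 29.4% of all promoters, the 17 being without either activated library. Gene-body sites with −log10 q of at least 10 were 2 shared and 1 quiescent-specific of 4 (beside 29.3% and 8.84% of all gene-body sites). The latter were 1 to 2 with 1 library left out, beside 13.2% to 16.8%. Between quiescent and activated cells limma called 2 of 9 gene-body sites with missing peaks imputed and 0 to 1 of 3 with 1 library left out, beside 12.2% and 4.91% to 8.41% of all sites. With no normalization the reactivated minus activated log2 difference turned positive at Hnrnpa1 (0.101), Hnrnpc (0.0484), Hnrnpd (0.0801), Hnrnpdl (0.0443), Hnrnpf (0.0414), Hnrnpu (0.0623), Sf3a2 (0.0626), Snrpc (0.0233), Snrpd2 (0.0394), Snrpd3 (0.107) and Srsf2 (0.0788). The reactivated minus quiescent difference did so at Hnrnpa1 (0.0678), Hnrnpab (0.158), Hnrnpc (0.0114), Hnrnpdl (0.0257), Srsf2 (0.265) and Srsf6 (0.12). This alternative leaves in the shift of all promoters, 0.48 and 0.62 on the log2 scale. With the replicate number as a block limma called 0, 22 and 16 members in the 3 comparisons (beside 1.37%, 21.5% and 25.9% of all promoters), 21 of the 22 and all 16 being the same genes. Same-numbered libraries did not deviate together (correlations of 0.00, 0.03 and -0.02 over 11331 promoters), so these values show no pairing by number. The study blocked on replicate when comparing young with old cells. Over all promoters the calls between quiescent and activated cells rose from 127 to 311 with median centring and 267 with no normalization, and fell to 13 without quiescent replicate 1. The cause of the other changes was not tested. The lists hold no read totals, and a peak under a pileup of 16 to 25 was not detectable.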
